A study of Mus musculus with 13 samples.

Results

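A set of 10 genes of Leydig cell steroid synthesis and hormone signalling was followed through RNA-seq libraries of enriched mouse Sertoli cells. The genes were chosen by exact name: Star, Cyp11a1, Cyp17a1, Hsd3b1, Hsd3b6, Hsd17b3, Insl3, Lhcgr, Fdx1 and Por. All 10 were found among the 27111 named features of the count table, and all 10 passed the filter on low counts that left 14421 genes for testing. The question was which of these genes varied together from mouse to mouse and which stayed steady, and whether any differed with early life stress.

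Each library came from 1 adult male C57Bl/6J mouse, aged 3 to 5 months and wild type. MSUS stands for maternal separation at unpredictable times, joined with unpredictable stress of the dam: 7 males had been taken from their dam for 3 h a day between postnatal days 1 and 14, while the dam was exposed to cold swim or restraint. The 6 control males had no separation. Testes were digested with enzymes, interstitial cells were washed off, and large diploid cells with a high MitoTracker signal were sorted. The sort therefore enriches Sertoli cells without a lineage marker, and each library averages over all cells that passed the gates.

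Leydig cells lie between the seminiferous tubules and make androgens in response to luteinising hormone. Cholesterol is carried into the mitochondrion by Star, cut to pregnenolone by Cyp11a1, and converted by 3β-hydroxysteroid dehydrogenases, Cyp17a1 and Hsd17b3 to testosterone. Fdx1 and Por pass electrons to the mitochondrial and microsomal cytochrome P450 enzymes and are used well beyond steroid synthesis. Insl3 is a peptide hormone of Leydig cells, and Lhcgr is their receptor for luteinising hormone. Sertoli cells sit inside the tubules, nurse the germ cells, and are not the source of testosterone.

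Named features held 9937178 to 14383367 counts per control library and 9776853 to 11876822 per MSUS library. The 5 Sertoli marker genes summed to between 11880 and 14764 CPM (counts scaled to a common library size) in control and to between 12094 and 14407 in MSUS libraries. In the same libraries the 10 steroidogenic genes summed to between 115 and 157 CPM in control and between 126 and 184 in MSUS. Of the 7 macrophage markers, Lyz2 and C1qa had at most 1 count in any library, whereas Mrc1 had 3962 to 6974 and Cd74 19 to 69. The 3 haemoglobin genes in the table had at most 6 counts. One control library, from mouse 9, held the lowest level of Cyp11a1, Cyp17a1 and Insl3. Results for the 10 genes that turn on it are therefore also given without it.

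Across the 13 mice the genes ranged from nearly constant to highly variable. On the log2 CPM scale, Por ranged from 5.77 to 6.17 and Fdx1 from 3.58 to 4.26. Cyp17a1, by contrast, ranged from -0.53 to 2.62, which is an 11.5-fold range in CPM. Cyp11a1 ranged over 21.5-fold, Hsd3b6 over 13.6-fold and Insl3 over 7.52-fold. Without control 9, which had 2 counts of Cyp11a1 and 6 of Cyp17a1, the ranges were 3.96-fold for Cyp17a1, 3.87-fold for Cyp11a1 and 3.93-fold for Insl3, and that of Hsd3b6 was the same 13.6-fold. Star and Hsd3b1 lay between these extremes, with ranges of 2.47-fold and 2.25-fold. In bulk libraries, fewer cells of a type and less RNA per cell cannot be told apart.

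**Figure D1:**
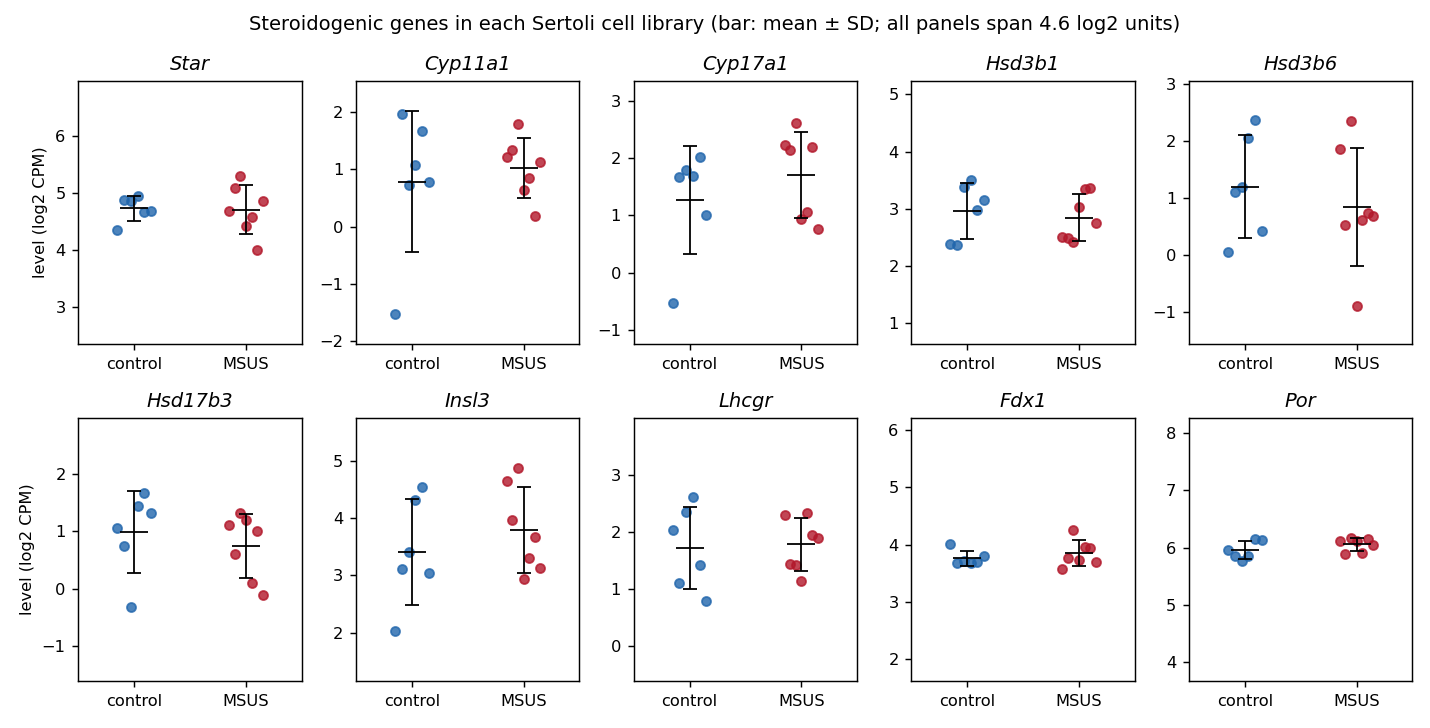
Level of each gene in log2 CPM (vertical axis) in 6 control and 7 MSUS libraries (1 point per mouse), with bars for the mean ± SD. Fdx1 and Por form tight clusters, Insl3, Cyp17a1, Cyp11a1 and Hsd3b6 are spread widely, and the groups overlap for all 10 genes.

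The spread between mice exceeded counting error for all 10 genes, least for Fdx1 and Hsd17b3 and most for Insl3. Insl3 was counted 45 to 329 times per library, which would give a counting SD of 0.13 on the log2 scale. The SD between mice within groups was 0.83, or 6.28 times the counting SD. Star, with 148 to 439 counts, had an SD between mice of 0.35 against 0.085 from counting. For Cyp11a1, with 2 to 55 counts, the SD was 0.92 against 0.42, and it was 0.53 without control 9. Without that library the SD was 0.64 for Cyp17a1 and 0.74 for Insl3. For Hsd17b3, with 8 to 41 counts, it was 0.64 against 0.35. Por, with 564 to 962 counts, had an SD of 0.13 against 0.054, and Fdx1, with 124 to 212 counts, had 0.19 against 0.12.

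Set beside other genes at the same level, Insl3 had the highest excess spread of the 10. Its biological coefficient of variation, the spread between mice after counting error is removed, was 0.454, 2.49 times the typical value of 0.183 for genes of similar level. Hsd3b6 had 0.571 against 0.351, Cyp17a1 0.460 against 0.329, and Cyp11a1 0.484 against 0.362. Without control 9 the values were 0.409 against 0.182 for Insl3, 0.380 against 0.324 for Cyp17a1 and 0.348 against 0.362 for Cyp11a1, which was then at the typical value. Fdx1, the ferredoxin of mitochondria, varied less than genes of similar level, with 0.143 against 0.183. Por, the cytochrome P450 oxidoreductase, also varied less, with 0.1004 against 0.119. Hsd17b3, at 0.383 against 0.373, and Lhcgr, at 0.363 against 0.317, were close to what their low levels typically show. The median over all genes tested was 0.155.

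**Figure D2:**
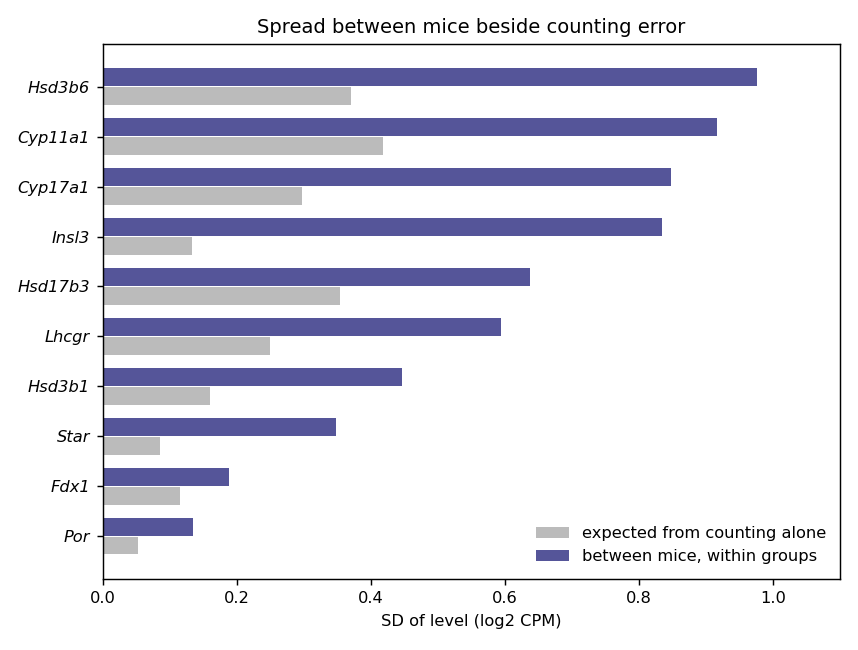
SD of the level between mice within groups (dark bars) and SD that counting alone would give (grey bars), both in log2 CPM, for the 10 genes. The dark bar exceeds the grey bar for every gene, from 0.13 against 0.054 for Por to 0.98 against 0.37 for Hsd3b6.

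The 10 genes were ranked by level after division by transcript length. Por led at 4.61 ± 0.14 log2 CPM per kb (SD, n = 13), followed by Insl3 at 4.30 ± 0.82 and Fdx1 at 4.001 ± 0.19. Star was at 2.70 ± 0.33 and Hsd3b1 at 2.01 ± 0.43. Cyp17a1, Hsd17b3, Hsd3b6 and Cyp11a1 followed at 0.65 ± 0.84, 0.50 ± 0.62, 0.16 ± 0.95 and -0.17 ± 0.89. Lhcgr was lowest, at -1.02 ± 0.57.

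The order held in every mouse at only 1 step: Fdx1 was above Star in 13 of 13 libraries. With the longest annotated Fdx1 transcript in place of the principal one, however, the level of Fdx1 per kb was 2.34, below that of Star. Star exceeded Hsd3b1, and Hsd3b1 exceeded Cyp17a1, in 12 of 13 libraries each. Por was above Insl3 in 8 of 13, Insl3 above Fdx1 in 7, Cyp17a1 above Hsd17b3 in 8, Hsd17b3 above Hsd3b6 in 6, and Hsd3b6 above Cyp11a1 in 7, so these neighbours did not differ beyond their spread. Of the genes that ranged over more than 3-fold, Insl3 had the highest level per length.

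**Figure D3:**
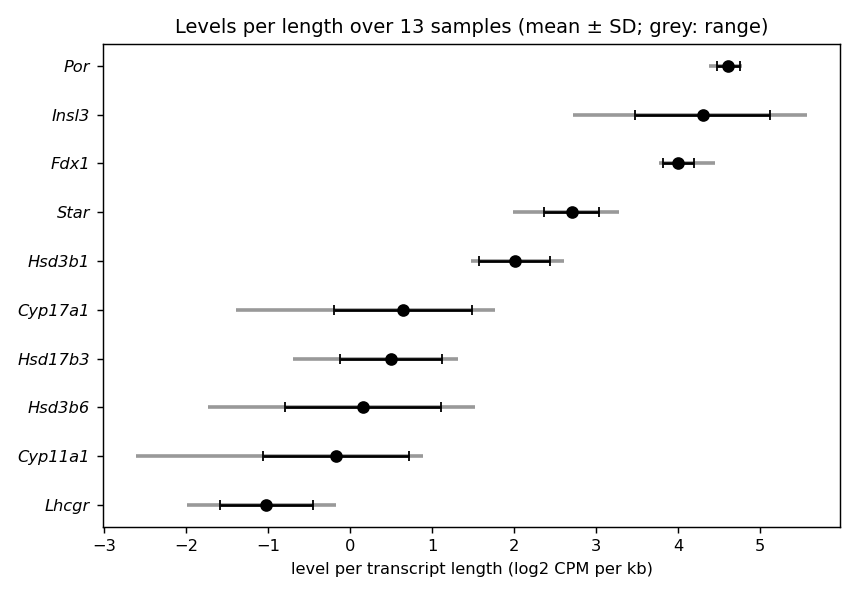
Level per transcript length in log2 CPM per kb (horizontal axis) for the 10 genes, as mean ± SD over 13 libraries, with the range in grey. Por, Insl3 and Fdx1 lie near 4 to 5, and Lhcgr lies lowest at -1.02.

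Cyp17a1, the enzyme that makes androgen precursors and a marker of Leydig cells, was used as the reference for co-variation. In control libraries its level was -0.53 at the lowest, 1.68 at the median and 2.03 at the highest. In MSUS libraries it was 0.75, 2.15 and 2.62. The lowest library was control 9, with 6 counts, and the highest was MSUS 6, with 67.

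Insl3 followed Cyp17a1 most closely. Its level was 2.03 at the lowest, 3.26 at the median and 4.55 at the highest in control, and 2.93, 3.67 and 4.89 in MSUS. The same libraries, control 9 and MSUS 6, were the lowest and highest for both genes. Pearson's r over the 13 mice was 0.88 (permutation p = 7e-05) and Spearman's rho was 0.89 (permutation p = 0.00014). Without the 2 libraries farthest from the median of Cyp17a1, control 9 and MSUS 6, r was 0.75. Among the 14420 genes compared with Cyp17a1, Insl3 ranked 3 by r.

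A model across all genes, with group and the level of Cyp17a1 as terms, gave Insl3 a slope of 0.94 ± 0.17 (SE), that is, a difference of 0.94 log2 units in Insl3 per log2 unit of Cyp17a1. By limma (n = 13) the unadjusted p was 4.72e-05 and the adjusted p over all genes was 0.341, which does not pass the threshold of 0.05. By edgeR's quasi-likelihood test the slope was 0.92 with an adjusted p of 0.0356, and Insl3 was the 1 gene called of 14420 (0.00693%). Both adjustments counted Cyp17a1 itself, fitted on its own level, which lowered the adjusted p of Insl3. With Cyp17a1 left out, edgeR would not call Insl3, as its unadjusted p of 4.94e-06 exceeds 0.05 divided by 14420. Without control 9 the limma slope was 1.02 and no gene was called by either test. The adjusted p of Insl3 by edgeR was then 0.978, with Cyp17a1 left out of the adjustment. The ratio of Cyp17a1 to Insl3 varied with an SD of 0.41 on the log2 scale, where counting alone would give 0.33. The ratio of the RNA levels of these genes thus varied less between mice than either level did, which restates their r.

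Hsd3b6, a 3β-hydroxysteroid dehydrogenase of adult Leydig cells, was also higher where Cyp17a1 was higher. Its level was 0.059 at the lowest, 1.14 at the median and 2.37 at the highest in control, and -0.88, 0.68 and 2.35 in MSUS. MSUS 11 was the lowest library, with 4 counts, and control 22 the highest, with 68. With Cyp17a1, r was 0.65 (permutation p = 0.0152), rho was 0.68 (permutation p = 0.0125), and r was 0.58 without the 2 farthest libraries. The limma slope (n = 13) was 1.08 ± 0.28, with p = 0.00145 and adjusted p = 0.999.

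Hsd3b6 had a higher r with Insl3 than with Cyp17a1, a difference that was not tested. The r between Hsd3b6 and Insl3 was 0.82 over all 13 mice, 0.97 within control and 0.89 within MSUS, and 0.83 without control 9. With Insl3 as the reference gene, a choice made after seeing the data because Insl3 had more counts, the limma slope of Hsd3b6 was 1.17 with an adjusted p of 0.0164. It was the only one of the 10 genes called with that reference. The SD of the log2 ratio of Hsd3b6 to Insl3 was 0.54, where counting alone would give 0.39.

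Cyp11a1, the side-chain cleavage enzyme, gave a relation that rested on few libraries. Its level was -1.53 at the lowest, 0.93 at the median and 1.97 at the highest in control, and 0.19, 1.13 and 1.80 in MSUS. Control 9, with 2 counts, lay far below all other libraries. With Cyp17a1, r was 0.73 (permutation p = 0.00995), but rho was 0.46 (permutation p = 0.12). Without control 9 r was 0.34, and without the 2 farthest libraries it was 0.18, so the relation no longer held. The limma slope (n = 13) was 0.78 ± 0.28, with p = 0.0128 and adjusted p = 0.999, and without control 9 the slope was 0.37.

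Star, the cholesterol import protein, had a higher r with Cyp11a1 than with Cyp17a1. Its level was 4.36 at the lowest, 4.77 at the median and 4.95 at the highest in control, and 4.01, 4.69 and 5.30 in MSUS. The lowest library was MSUS 23 and the highest MSUS 6, so the control libraries lay within the MSUS range. With Cyp17a1, r was 0.39 (permutation p = 0.183) and the slope 0.18 ± 0.10. This value depended on single libraries: r was 0.74 without MSUS 23 and -0.022 without control 9 and MSUS 6. With Cyp11a1, r was 0.65 over 13 mice, 0.77 within control and 0.98 within MSUS, and it was 0.72 without control 9. The 95% interval of the slope of Star on Cyp17a1, -0.039 to 0.39, lay below that of Insl3, 0.58 to 1.31.

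For the other 5 genes no relation to Cyp17a1 over the 13 mice passed the test. Hsd17b3, which makes testosterone from androstenedione, had r = 0.17 (permutation p = 0.583) and Hsd3b1 had r = 0.046 (permutation p = 0.887). For Lhcgr r was -0.021 (permutation p = 0.948), for Fdx1 -0.047 (permutation p = 0.876) and for Por 0.16 (permutation p = 0.622). The value of Fdx1 joined opposite signs: r was -0.98 within the 6 control mice and 0.39 within the 7 MSUS mice. Within control it was -0.81 without control 9. Over all mice it was 0.30 without control 9 and -0.53 without MSUS 6. The slopes of Fdx1 did not pass the test of a difference between the groups (limma, adjusted p = 0.884). Among these 5, Hsd17b3 ranged from -0.33 to 1.67 log2 CPM in control and from -0.10 to 1.32 in MSUS, and Lhcgr from 0.79 to 2.60 and from 1.14 to 2.34. The 95% intervals of the slopes bound what could be missed for the counted level of Cyp17a1. They take that level as exact, although its counting SD was 0.30 against 0.85 between mice. Por had an interval of -0.097 to 0.12 and Fdx1 one of -0.19 to 0.14, both far below the slope of Insl3. Hsd3b1 had -0.28 to 0.36 and Lhcgr -0.48 to 0.38. For Hsd17b3 the interval was -0.36 to 0.72, which overlaps those of Insl3 and Hsd3b6 (0.48 to 1.68) but ends below the estimated slopes of both. Without control 9 the slope of Hsd17b3 was 0.46 ± 0.36 (SE), beside 1.02 ± 0.21 for Insl3, which is a weaker bound. The SE was then larger for the others too. Their slopes were -0.21 ± 0.20 for Hsd3b1, 0.090 ± 0.29 for Lhcgr, 0.092 ± 0.11 for Fdx1 and 0.033 ± 0.074 for Por. The r of Hsd17b3 with Cyp17a1 was -0.083 within control and 0.65 within MSUS.

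**Figure D4:**
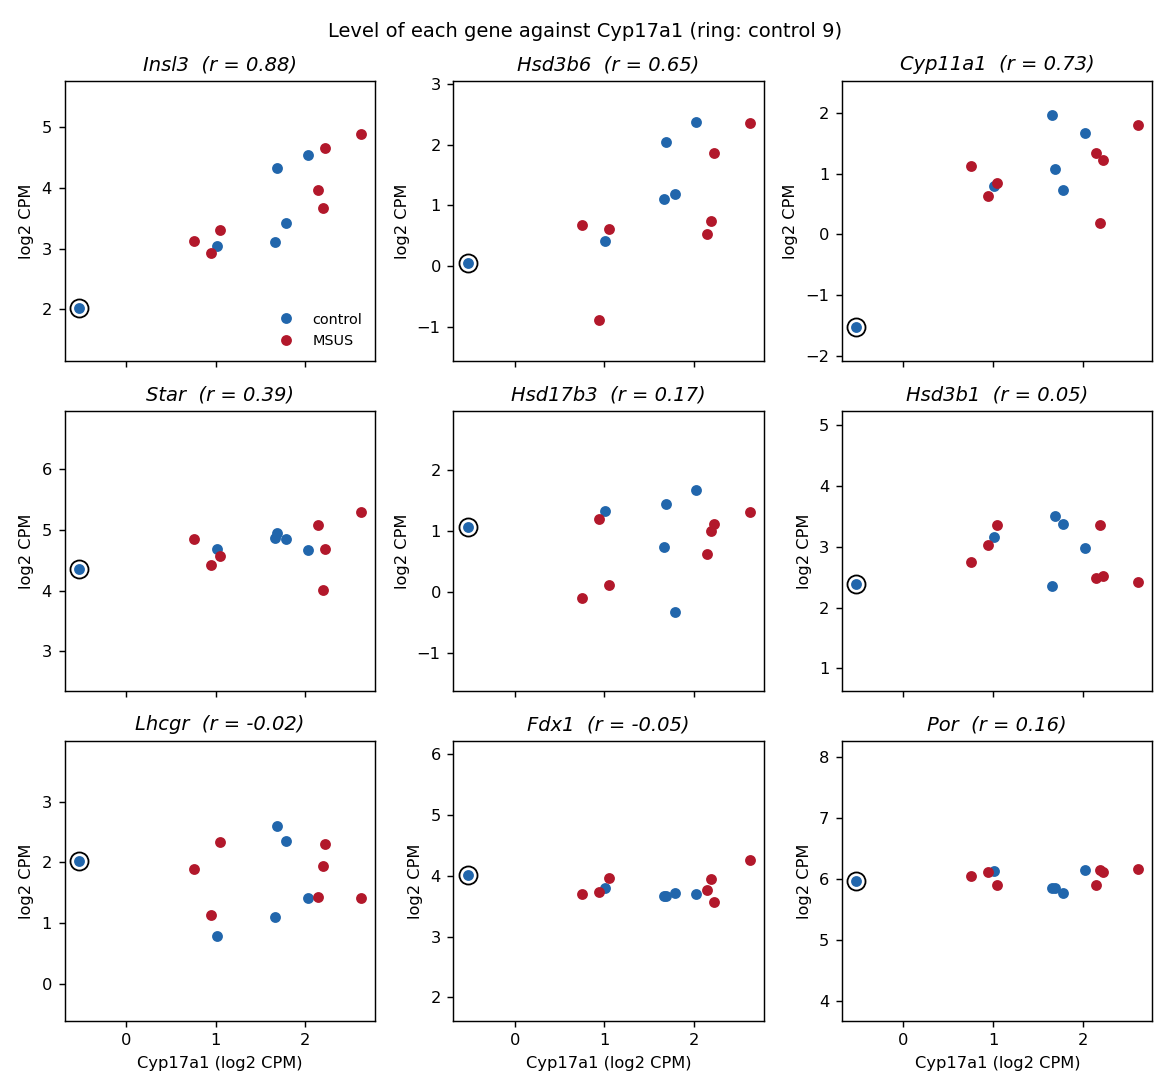
Level of each of the other 9 genes in log2 CPM (vertical axes) against Cyp17a1 in log2 CPM (horizontal axes), 1 point per mouse, blue for control and red for MSUS, with a ring around control 9. Insl3 (r = 0.88) is ordered much as Cyp17a1 is, the r of Cyp11a1 (0.73) is 0.34 without the ringed library, and Fdx1 and Por lie in narrow bands.

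Counted over the list, 3 of 9 genes (Insl3, Hsd3b6 and Cyp11a1) had an unadjusted limma p under 0.05 for the slope, all positive, beside 3.08% of all 14420 genes 1.55% with a positive and 1.53% with a negative slope. By edgeR the same 3 genes had an unadjusted p under 0.05, beside 3.07% of all genes. Without control 9 there were 2 (Insl3 and Hsd3b6) by each test, beside 3.80% of 14563 genes by limma. None of the 9 passed after adjustment by limma, and 1 (Insl3) passed by edgeR, only with Cyp17a1 itself counted among the genes adjusted. The median r of all genes tested was -0.019. Slopes were also compared between control and MSUS mice, and none of the 9 differences had p under 0.05 by limma, beside 5.44% of all genes. The smallest of these p-values was that of Cyp11a1, with a slope of 1.21 in control and 0.25 in MSUS (n = 13, p = 0.0799, adjusted p = 0.884).

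Among all 45 pairs of the 10 genes, r ranged from -0.44 to 0.88 with a median of 0.057. There were 6 pairs with r above 0.6 and rho above 0.4, and all lay among Insl3, Cyp17a1, Hsd3b6, Cyp11a1 and Star. These 5 genes were picked out after their correlations were seen, and the pairs share libraries and genes, so no test was made of the group. Without control 9 the pairs were 4: the 3 among Insl3, Cyp17a1 and Hsd3b6, and Star with Cyp11a1. Cyp11a1 then had r = 0.34 with Cyp17a1 and 0.43 with Insl3, so the pairs past these limits that joined the 2 sets rested on that library. Cyp11a1 with Hsd3b6 was below the limit of r, with 0.55 over all mice and 0.56 without control 9. Star had 0.50 and 0.45 with Hsd3b6, 0.48 and 0.38 with Insl3, and 0.39 and 0.24 with Cyp17a1. Outside the 5 genes, the highest r was 0.56, between Hsd17b3 and Por. Hsd3b1 and Lhcgr had r = 0.36 with each other and from -0.33 to 0.27 with the 5, and Lhcgr and Por had r = -0.44. Without control 9, Hsd3b1 had r = -0.74 with Cyp11a1 and -0.51 with Star. Within MSUS these were -0.88 and -0.84, and within control 0.26 and 0.56.

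**Figure D5:**
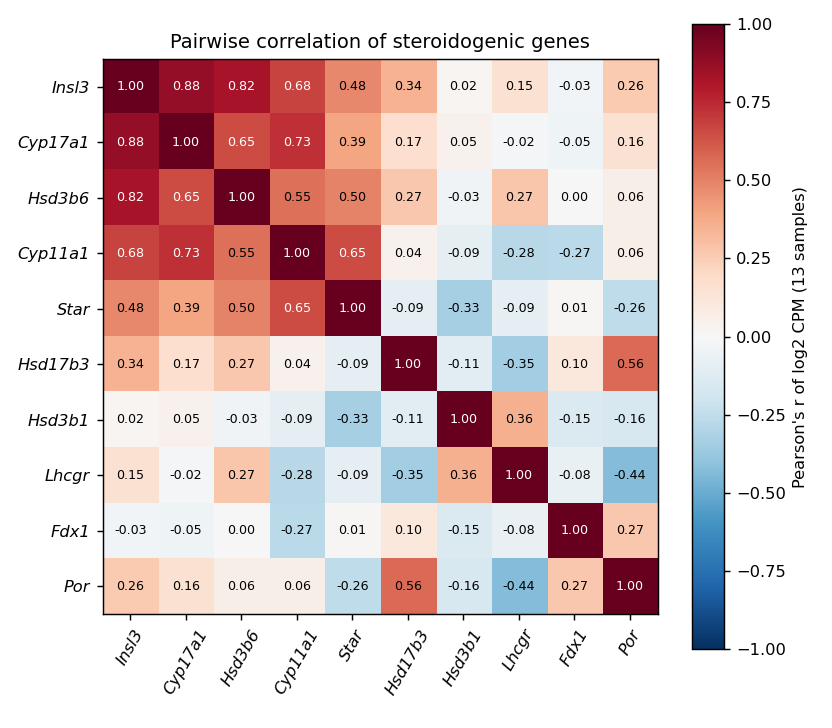
Pearson's r between the log2 CPM levels of each pair of the 10 genes over 13 libraries, with red for positive and blue for negative values. The upper left block of Insl3, Cyp17a1, Hsd3b6, Cyp11a1 and Star holds every r above 0.6 between different genes.

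The 2 genes for 3β-hydroxysteroid dehydrogenases are neighbours of nearly the same sequence, and their levels were not related over all 13 mice. Hsd3b1 is at chr3:98852194-98859794 and Hsd3b6 at chr3:98805504-98814443, both on the minus strand (GRCm38). Hsd3b1 had 58 to 131 counts and a level of 2.96 ± 0.49 in control (n = 6) and 2.85 ± 0.41 in MSUS (n = 7). The r between Hsd3b1 and Hsd3b6 was -0.03 (0.48 within control and -0.53 within MSUS), beside 0.82 for Hsd3b6 with Insl3. Of the 1119 bases of their coding sequences, 1007 were identical. To show how far reads can tell them apart, the stretch of 90 coding bases in which they are most alike (bases 213 to 302 from the start codon) and the one in which they differ most (bases 64 to 153) are given, with differing bases in capitals.
Hsd3b1, most alike: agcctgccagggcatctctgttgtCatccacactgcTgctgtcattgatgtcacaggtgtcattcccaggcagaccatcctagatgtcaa
Hsd3b6, most alike: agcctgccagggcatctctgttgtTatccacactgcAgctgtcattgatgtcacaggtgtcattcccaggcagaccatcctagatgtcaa
Hsd3b1, most different: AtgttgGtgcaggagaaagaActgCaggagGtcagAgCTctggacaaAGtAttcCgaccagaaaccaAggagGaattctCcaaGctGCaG
Hsd3b6, most different: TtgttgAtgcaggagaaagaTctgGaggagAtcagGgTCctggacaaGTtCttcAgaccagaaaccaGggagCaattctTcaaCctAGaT

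The first pair differs at 2 bases and the second at 19. No window of 100 bases, the read length, was identical between Hsd3b1 and any other gene. Of the windows of Hsd3b6, 3.11% were shared with Hsd3b3 or Hsd3b2, which are closer relatives. Hsd3b2 is not among the 10 genes, but it had 785 to 1519 counts against 4 to 68 for Hsd3b6, and its coding sequence was 94.4% identical to that of Hsd3b6. The counts of Hsd3b6 are uncertain as far as reads of such shared stretches were divided between these genes. The r of Hsd3b2 with Hsd3b6 was 0.47, beside 0.82 for Insl3.

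Insl3 overlaps another annotated gene on the same strand. It occupies chr8:71689214-71690575 (plus strand, GRCm38) with 2 exons, and 58.2% of its windows of 100 bases also occur in transcripts of Jak3. Estimated counts of Jak3 were between 1.04 and 15 per library, and Insl3 held 87.5% to 99.4% of the counts of both. Jak3 had r = -0.40 with Insl3, and as reads from the shared stretches cannot be assigned for certain, the level of Insl3 carries that uncertainty. With the Jak3 counts added to those of Insl3, an unplanned alternative, r with Cyp17a1 was 0.885. The limma slope was then 0.89, with an adjusted p of 0.232. That alternative does not cover reads of Jak3 that were counted as Insl3. The remaining 8 genes shared under 1% of their windows with other genes, and Cyp11a1 was the only one of these above 0, with 0.959% shared with Gm17322.

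Promoter sequences were searched for motifs. RefSeq entries (GRCm38.p6) of 250 bases before to 50 after the start were used for 8 of the 10 genes, and Star and Cyp17a1 had no entry. The motif AGGTCA, a sequence bound by nuclear receptors such as Nr5a1, was searched on both strands together with CAAGGTC, an extended form that overlaps it by 5 letters and was chosen after the sequences were seen. Motifs are in capitals, and all sequences read along the gene. The Insl3 promoter (chr8:71689002-71689301, plus strand), the downstream start of Cyp11a1 (chr9:58014702-58015001, plus strand), Hsd3b6 (chr3:98814394-98814693, minus strand) and Lhcgr (chr17:88791965-88792264, minus strand) are shown because they hold a motif or belong to the genes with the highest r.
Insl3: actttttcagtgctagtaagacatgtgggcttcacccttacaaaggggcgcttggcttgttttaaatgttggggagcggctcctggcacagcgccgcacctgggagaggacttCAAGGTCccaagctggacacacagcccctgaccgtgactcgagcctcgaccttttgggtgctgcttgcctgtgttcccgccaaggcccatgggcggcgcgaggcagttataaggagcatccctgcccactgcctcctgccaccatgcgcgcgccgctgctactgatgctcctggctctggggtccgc
Cyp11a1: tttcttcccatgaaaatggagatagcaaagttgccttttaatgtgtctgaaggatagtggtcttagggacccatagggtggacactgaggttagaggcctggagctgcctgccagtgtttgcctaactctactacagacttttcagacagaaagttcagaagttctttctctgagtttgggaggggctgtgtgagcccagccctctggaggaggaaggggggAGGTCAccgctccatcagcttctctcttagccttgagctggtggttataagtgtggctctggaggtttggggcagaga
Hsd3b6: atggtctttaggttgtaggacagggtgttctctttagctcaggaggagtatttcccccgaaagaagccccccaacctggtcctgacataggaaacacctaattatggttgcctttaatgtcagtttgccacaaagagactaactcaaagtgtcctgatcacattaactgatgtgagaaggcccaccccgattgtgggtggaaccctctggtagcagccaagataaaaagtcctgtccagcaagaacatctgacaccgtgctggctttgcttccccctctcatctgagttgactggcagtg
Lhcgr: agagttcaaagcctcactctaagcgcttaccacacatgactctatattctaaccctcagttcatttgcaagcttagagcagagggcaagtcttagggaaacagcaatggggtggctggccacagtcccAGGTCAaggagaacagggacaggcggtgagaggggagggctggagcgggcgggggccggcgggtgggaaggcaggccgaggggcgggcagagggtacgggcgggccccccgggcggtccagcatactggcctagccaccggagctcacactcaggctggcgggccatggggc

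AGGTCA was found at -28 from the start of Cyp11a1 and at -122 in Lhcgr, and 16.3% of all 32851 promoters of this length hold it. CAAGGTC was found at -137 in Insl3, and 3.96% of all promoters hold it. Neither was found at the upstream start of Cyp11a1 (chr9:57997774-57998073) or in the windows of Hsd3b6, Hsd3b1, Hsd17b3, Fdx1 or Por.

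No difference between MSUS and control passed the test for any of the 10 genes. None had an unadjusted p under 0.05 by limma, edgeR or DESeq2, beside 5.42% of all 14421 genes (3.02% higher and 2.40% lower in MSUS). No gene of the 14421 passed after adjustment by limma. The groups overlapped for all 10 genes, while 0.132% of all genes had groups that did not overlap. The median log2 fold change was 0.095 over the 10 genes and -0.0017 over all genes tested.

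Cyp17a1, Insl3 and Cyp11a1 had higher means in MSUS, with wide intervals. Cyp17a1 was 1.27 ± 0.94 in control (SD, n = 6) and 1.71 ± 0.76 in MSUS (n = 7), a log2 fold change of 0.42 (95% interval -0.50 to 1.33, adjusted p = 0.919). Insl3 was 3.41 ± 0.92 and 3.79 ± 0.75, a log2 fold change of 0.39 (-0.41 to 1.19). Without control 9 these 2 differences were 0.030 and 0.12. Cyp11a1 had a log2 fold change of 0.29 (-0.77 to 1.35), which was -0.26 without control 9 and -0.017 by edgeR, so its direction was not settled. Hsd3b6 pointed the other way, with 1.20 ± 0.90 in control, 0.84 ± 1.04 in MSUS and a log2 fold change of -0.40 (-1.45 to 0.64). It was -0.075 without MSUS 11, which had 4 counts, and -0.67 without MSUS 6. Star had a log2 fold change of -0.011 (-0.35 to 0.33).

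Por and Fdx1, the steady genes, gave the tightest bounds. Por was 5.95 ± 0.16 in control and 6.05 ± 0.11 in MSUS, a log2 fold change of 0.10 with an interval of -0.061 to 0.27. Fdx1 was 3.76 ± 0.13 and 3.85 ± 0.23, a log2 fold change of 0.087 (-0.16 to 0.34). Intervals were wider for Hsd3b1, with -0.099 (-0.58 to 0.38), Hsd17b3, with -0.23 (-1.02 to 0.57), and Lhcgr, with 0.10 (-0.55 to 0.76). For Lhcgr the sign turned with edgeR and DESeq2.

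Other genes of the pathway gave few relations to Cyp17a1. Of 13 genes for cholesterol supply and electron transfer, 1 had a positive slope at an unadjusted p under 0.05, beside 1.55% of all genes, and none passed after adjustment. That gene was Fdxr, the reductase that hands electrons to Fdx1, with r = 0.66 and a slope of 0.12 (limma p = 0.0172). Fdxr was lowest in control 9, at 5.28 log2 CPM, as was Cyp17a1. The slope of Fdxr without that library is not given here. Soat1, which esterifies cholesterol, had a level of 8.69 log2 CPM and r = -0.27. None of the 5 regulators had p under 0.05. Nr5a1, the nuclear receptor that drives steroidogenic genes and is also made in Sertoli cells, had 1803 to 2800 counts and r = -0.11.

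Of 13 other steroid enzymes, 5 passed the filter and 1 had an unadjusted p under 0.05, beside 3.08% of all genes. Srd5a1, a 5α-reductase, had r = -0.54 and a slope of -0.29 (limma p = 0.0429), and none passed after adjustment. The highest level of Srd5a1, 2.66 log2 CPM, was in control 9, the library lowest in Cyp17a1. Its slope without that library is not given here. The 8 enzymes that did not pass had median counts of 0 to 4. They include Cyp11b1 and Cyp21a1 of the adrenal cortex, each with a median of 1 count, and Cyp19a1, the aromatase, with a median of 4.

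Markers of other testis cells were read beside these values. Of 7 interstitial stromal genes 3 were tested, and none had an unadjusted p under 0.05 for the slope on Cyp17a1. The same held for 6 endothelial, 4 peritubular myoid, 5 spermatocyte, 4 round spermatid, 4 elongated spermatid and 5 Sertoli genes tested. One endothelial gene, Tek, had an unadjusted p under 0.05 between MSUS and control, beside 5.42% of all genes, with a log2 fold change of 0.75 and an adjusted p of 0.878 by limma. Summed levels overlapped between groups, from 13.02 to 31.7 CPM in control and 16.5 to 35.5 in MSUS for stromal genes, and from 8.02 to 62.8 and 11.5 to 92.6 CPM for myoid genes. Of 7 macrophage genes 2 were tested, and both had a negative slope at an unadjusted p under 0.05, beside 1.53% of all genes. They were Cd74 (r = -0.59, limma p = 0.0159) and Mrc1 (r = -0.62, limma p = 0.0427), with adjusted p = 0.999 for each. Cd74 was highest in control 9, the library lowest in Cyp17a1, at 2.62 log2 CPM. Mrc1 was highest in MSUS 26, at 9.07. The slopes of both without control 9 are not given here. The other 5, Adgre1, Csf1r, C1qa, C1qb and Lyz2, had median counts of 0 to 3. The summed macrophage list ranged from 433 to 497 CPM in control and from 388 to 541 CPM in MSUS, nearly all of it Mrc1. The part of these cells in the levels of the 10 genes was not tested.

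Over all tested genes with established names, the 10 most like Cyp17a1 by r over 13 libraries, the steroidogenic genes aside, were Cyren, Mterf1b, Itgb3, Sat1, Vmn1r217, Ddhd2, Taf1d, Chkb, Vmn1r60 and Haus1. Their r ranged from 0.78 for Haus1 to 0.90 for Cyren, and that of Insl3 was 0.88. The slope of Cyren was 0.51 ± 0.13 (n = 13, limma p = 0.00139, adjusted p = 0.999). None of the 10 passed after adjustment by limma or edgeR.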

How the data were processed

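RNA was extracted from sorted cells of 13 mice, and libraries were made from 5 ng RNA with the SMARTer Stranded Total RNA-Seq Pico v2 kit (12 PCR cycles, 100-base single-end reads). The authors trimmed reads with Trim Galore 0.6.5 and quantified GENCODE vM23 transcripts (GRCm38) with Salmon 1.1.0, and deposited estimated counts per gene, not normalized; how transcripts were summed to genes is not given in the sources used here. Estimated counts were rounded to whole numbers. Features with no gene name (27170 of 54281) were left out.

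The 10 genes, the gene lists and the tests were chosen with earlier results of these data known. Genes were filtered with filterByExpr, scaled by TMM (edgeR 4.0.16) and tested with limma 3.58.1 (voom, R 4.3.3), with group as the term or with group and the log2 CPM of Cyp17a1 (prior count 2). P-values were two-sided and adjusted by Benjamini-Hochberg over all genes tested. In the slope fits the adjustment counted the reference gene itself, except in the separate limma and edgeR fits without control 9. Correlations of the 9 other genes with Cyp17a1 were given 100000 permutations. The alternatives were edgeR's quasi-likelihood test, DESeq2 1.42.0, other scalings, filters, prior counts and reference genes, sample quality weights, and leaving out each mouse. The scripts were tested on simulated data. The SD expected from counting covers counting error only, since reads carry no molecular identifiers. Named genes were the 10 genes, list genes at the extremes of level or past the test, and the 10 genes with the highest r with Cyp17a1, without names of the Gm and Rik kinds. Annotation was GENCODE vM21 (GRCm38). Levels per length used the principal transcript. No 2 libraries were alike within sampling noise (78 pairs). Animals are the replicates; their cages and litters were not used here, so mice that shared a litter are not accounted for. The range, the coefficient of variation and the pairs without control 9 were added after seeing the data. One list gene is not reported here.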

Additional observations from a re-analysis of the deposited data

Results flagged for a closer look

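The level of Cyp11a1 in control 9 was -1.53 log2 CPM, from 2 counts, while the other 5 control libraries lay between 0.73 and 1.97. The gap to the nearest library was 0.644 of the range of the group, above Dixon's 95% critical value of 0.625. It was 1 of 20 sets of values searched (10 genes in each group), and chance gives about 1 in 20.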

How the results depend on the processing

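No paired analysis was possible because the groups share no animal numbers, and cage and litter were not used here. None of the 10 genes had p under 0.05 between MSUS and control under any alternative, and leaving out each mouse gave 0 to 0 genes. The log2 fold change of Star was 0.018 by edgeR, 0.021 by DESeq2 and 0.052 with quality weights, and -0.11 to 0.092 when mice were left out. That of Cyp11a1 was -0.017, -0.0094 and, with Cyp17a1 as covariate, -0.28, and -0.26 to 0.59 when mice were left out. That of Lhcgr was -0.011 by edgeR and -0.0083 by DESeq2, and -0.056 to 0.26 when mice were left out. The count of genes moving with the reference at an adjusted p under 0.05 was 0, but 1 (Insl3) by edgeR and 1 (Hsd3b6) with Insl3 as the reference. It was 0 to 0 when mice were left out. The edgeR call rested on counting Cyp17a1 itself in the adjustment. Without control 9, where Cyp17a1 was left out of the adjustment, edgeR called 0.

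With Hsd3b1 as the reference, slopes were -0.24 (Star), -0.17 (Cyp11a1), -0.0064 (Hsd3b6), -0.25 (Hsd17b3), -0.027 (Insl3), 0.58 (Lhcgr) and -0.034 (Por). With Star as the reference they were 1.77 (Cyp11a1), 1.35 (Insl3), 1.80 (Hsd3b6) and 1.31 (Cyp17a1), these 4 with an unadjusted p under 0.05 and none after adjustment, and -0.41 (Hsd3b1), -0.30 (Hsd17b3), 0.021 (Fdx1) and -0.10 (Por), the slope of Hsd3b1 on Cyp11a1 was -0.028, and that of Lhcgr on Insl3 was 0.085. A slope on another gene is another quantity. When mice were left out, slopes on Cyp17a1 ranged from -0.21 to 0.10 (Hsd3b1), -0.13 to 0.090 (Lhcgr), -0.095 to 0.092 (Fdx1) and -0.014 to 0.033 (Por), and those of Insl3 from 0.86 to 1.02. The cause of these changes was not tested. Low counts limit Cyp11a1, Hsd3b6, Hsd17b3 and Cyp17a1 the most.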

Other observations

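Of the other genes of the 3β-hydroxysteroid dehydrogenase family, Hsd3b2 had the most counts, with 785 to 1519 counts and a level of 6.59 ± 0.27 log2 CPM in control (SD, n = 6) and 6.54 ± 0.19 in MSUS (n = 7). Its r with Cyp17a1 was 0.34. It overlaps Zfp697 on the other strand, which had a level of 5.21 log2 CPM. Hsd3b3 had 0 to 8 counts, Hsd3b4 0 to 15 and Hsd3b5 0 to 7.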
